A study of Mus musculus with 4 samples.

Results

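E2A binding at Tcf7 and Lef1 was read from the chromatin immunoprecipitation sequencing (ChIP-Seq) peak lists of CD4+ CD8+ double positive (DP) thymocytes and invariant natural killer T (iNKT) cells. A peak was counted as a member when its midpoint lay in the gene body or within 200 kb of either end on mouse genome build mm9. By that rule 49 of 17532 DP peaks and 2 of 1516 iNKT peaks were members. Tcf7 held 25 DP peaks and 1 iNKT peak, and Lef1 held 24 DP peaks and 1 iNKT peak. Both cell types came from thymi of L-DKO mice, which carry LckCre+ with the floxed alleles Id2 f/f and Id3 f/f, so that a Cre driven by Lck deletes both Id genes in T lineage cells. The mice were 3 to 5 weeks old and on a C57BL/6 or C57BL/6 hybrid background. Each library pooled 3 to 4 mice. DP cells were sorted as CD1dTet- CD4+ CD8+ and iNKT cells as CD1dTet+ TCRβ+, and E2A was precipitated with the V-18 antibody. Each cell type had 1 E2A library with 1 input, so the cell types are compared without a test, and both carry the deletion with no Id-sufficient group beside them. Peak lists hold no expression values, so the identity of the sorted cells could not be checked against marker genes.

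Tcf7 encodes TCF-1 and Lef1 encodes LEF1, related HMG-box transcription factors that bind the same short DNA core and act with β-catenin or with Groucho/TLE corepressors. They are needed for early T cell development, for the survival of DP thymocytes and for iNKT cell development. E2A, the product of Tcf3, is an E protein that binds E-box sequences, and Id2 and Id3 block this binding by pairing with E proteins. The lists measure where E2A was bound. They hold no chromatin mark and no readout of enhancer activity.

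The sequences below show where E-boxes lie in the peaks that the layout turns on. They are read from the plus strand of the mm9 assembly, from which the alleles of these mice may differ. Capitals mark the E-box CAGGTG, which reads CACCTG on the other strand, and the palindromic E-box CAGCTG. The first pair are 200 bp windows at the midpoints of top-scoring DP peaks, chr11:52154961-52155160 upstream of Tcf7, whose peak ties at 3100 with the one at 30.8 kb upstream, and chr3:130757642-130757841 upstream of Lef1. The remaining one is the 200 bp at the midpoint of the DP peak nearest the Lef1 start site, chr3:130814894-130815093 in an intron, and it holds neither E-box.
Tcf7 upstream, tied highest DP score: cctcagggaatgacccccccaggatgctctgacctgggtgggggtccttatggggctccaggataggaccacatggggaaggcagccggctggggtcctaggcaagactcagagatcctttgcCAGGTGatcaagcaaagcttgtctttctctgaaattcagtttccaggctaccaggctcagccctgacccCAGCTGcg
Lef1 upstream, highest DP score: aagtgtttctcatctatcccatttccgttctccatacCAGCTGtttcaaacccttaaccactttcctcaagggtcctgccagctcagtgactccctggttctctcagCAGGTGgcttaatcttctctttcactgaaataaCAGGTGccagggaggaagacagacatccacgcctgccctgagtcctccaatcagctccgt
Lef1 intron near the start site: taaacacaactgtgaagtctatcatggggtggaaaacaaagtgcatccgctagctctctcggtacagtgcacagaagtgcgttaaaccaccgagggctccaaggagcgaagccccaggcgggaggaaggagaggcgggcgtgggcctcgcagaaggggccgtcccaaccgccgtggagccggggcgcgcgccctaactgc

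The next 5 sequences are the CAGGTG sites, in capitals with 12 bp on either side, inside the iNKT peaks, which are also the only peaks of these loci that the lists share. The Tcf7 sites lie at chr11:52127610-52127615, chr11:52127676-52127681 and chr11:52128116-52128121. The Lef1 sites lie at chr3:130650446-130650451 and chr3:130650480-130650485.
Tcf7 shared, first E-box: ccccagacctttCAGGTGagaaaactttcc
Tcf7 shared, second E-box: ttgcgggaaccaCAGGTGcacagatctgag
Tcf7 shared, last E-box: ggaaaaatcagaCACCTGagctcatgagag
Lef1 shared, first E-box: acagggccaagaCACCTGgactcccctccc
Lef1 shared, second E-box: aaacacaactacCACCTGtaggctagctcc

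The last pair show the TCAAAG core of TCF-1 and LEF1 (CTTTGA on the other strand), in capitals, at the copy nearest to a CAGGTG site in each shared peak, chr11:52128015-52128020 and chr3:130650323-130650328. From first base to first base the core and the E-box were 101 bp apart at Tcf7 and 123 bp apart at Lef1.
Tcf7 shared, TCF-1 and LEF1 core: tcttcaagtgggCTTTGAtgcttagataac
Lef1 shared, TCF-1 and LEF1 core: gtaaagattgggCTTTGAaggcaggaagca

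Each peak carries a score from the peak caller MACS, the negative log10 of its p-value against input multiplied by 10. The lowest score in either list was 50, a p-value of 1e-05. DP peaks had a median score of 141 and iNKT peaks of 79.6. A score of 3100 was shared by 258 DP peaks, so their order among each other is not resolved. The numbers of reads behind the peaks are unknown here, and a score rises with depth as well as with binding. The DP list is far longer than the iNKT list, so a site without an iNKT peak was not called at that library's depth and is not thereby shown to be unbound.

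Tcf7 lies on the minus strand at chr11:52065873-52096681 and spans 30.8 kb. Its 25 DP peaks scored from 54.3 to 3100 with a median of 171, and 14 of them were above the median of the whole DP list. The peaks covered 42330 bp, or 9.83% of the 431 kb window. E2A peaks lay on both sides of the gene and inside it, with 12 upstream, 6 in the gene body and 7 beyond its 3′ end. Per length the gene body was densest, at 19.5 peaks per 100 kb against 6.00 upstream and 3.50 downstream.

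The upstream arm of Tcf7 carried 4 of its 5 DP peaks that scored 1000 or more. The peak at 30.8 kb upstream (chr11:52126246-52128643) scored 3100 and ranked 27 among all DP peaks. The peak at 58.4 kb upstream (chr11:52152519-52157603) also scored 3100 and was the widest of the locus at 5085 bp. Its midpoint lies 19.3 kb from the start site of Vdac1, a mitochondrial channel gene, which is closer than Tcf7. A peak at 9.70 kb upstream (chr11:52105558-52107205) scored 1389.8, and one at 35.3 kb (chr11:52131321-52132596) scored 1099.7. Just below them, the peak at 27.0 kb (chr11:52122392-52124957) scored 953. High-scoring E2A peaks thus lay at several distances upstream and not at 1 site alone.

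The other 7 upstream peaks were weaker. The strongest of them, at 53.0 kb, scored 340, and its neighbour at 54.8 kb scored 157. Peaks at 25.0 and 16.3 kb scored 135 and 116. The remaining 3, at 0.985, 14.2 and 45.9 kb, scored 74.8, 69.0 and 73.0, all near the lower end of the list.

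Inside Tcf7 the scores were led by an intronic peak 7.97 kb past the start site (chr11:52086466-52090963), which scored 2079 and was 4498 bp wide. It ranked 615 in the DP list and overlapped no iNKT peak. The peak closest to the start site (chr11:52094907-52096666) scored 218. It covered 3 of the 4 annotated starts of coding Tcf7 transcripts, at 52095746, 52096073 and 52096516, and ended 15 bp short of the most upstream start, at 52096681. Alternative Tcf7 starts give long and short TCF-1 proteins, of which the short ones lack the β-catenin binding part. The other gene body peaks scored 71.6 at 3.73 kb, 183 at 15.2 kb, 106 at 17.5 kb and 61.2 at 24.3 kb, the last with its midpoint in a coding exon. So the highest score of the gene body belonged to the peak at 7.97 kb and not to the one over the start sites.

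Beyond the 3′ end of Tcf7 the median score of the 7 peaks was 171, against 249 for the upstream peaks and 145 for those in the gene body, and no score there exceeded 529. A peak 51.3 kb from the Tcf7 start site scored 402 and lay over the start of Skp1a, 0.0850 kb from it. Skp1a encodes a subunit of SCF ubiquitin ligases. Peaks at 58.9 and 60.5 kb scored 382 and 57.1, and a peak just past the end of the gene, 33.2 kb from its start, scored 54.3. Farther out a peak at 110 kb scored 171. A pair of neighbouring peaks in an intron of Cdkl3 scored 529 at 207 kb and 70.4 at 208 kb. The midpoints of all 7 lay in introns of Gm16953, an annotated long noncoding RNA gene. That gene also spans the midpoints of the Tcf7 gene body peaks at 15.2, 17.5 and 24.3 kb. All 7 peaks beyond the 3′ end scored below the 5 strongest upstream and intronic peaks.

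**Figure D1:**
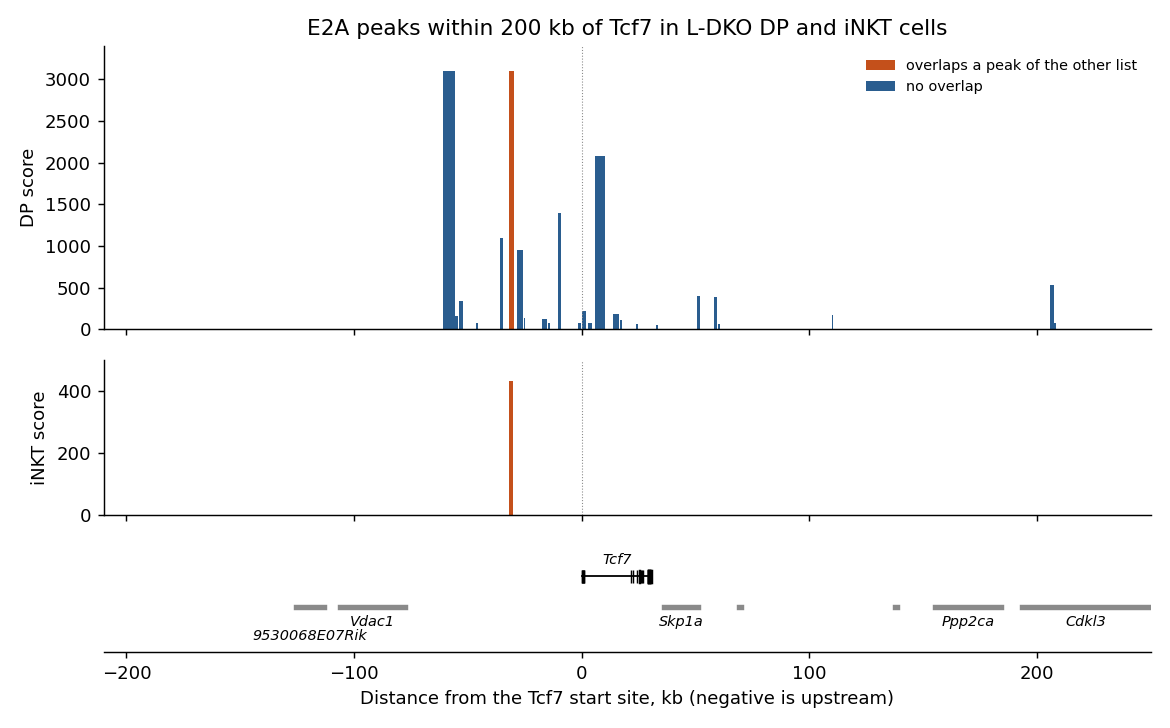
E2A peaks around Tcf7 by distance from its start site in kb, with score on the vertical axis for DP cells (top) and iNKT cells (middle), bar width as peak width, and genes below (exons as black boxes on Tcf7, other protein-coding genes in grey, the pair of unlabelled ones being olfactory receptor genes). The DP bars at 58.4 and 30.8 kb upstream reach 3100, the intronic bar reaches 2079, and the single iNKT bar of 432 stands under the bar at 30.8 kb.

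Lef1 lies on the plus strand at chr3:130813389-130927274 and spans 114 kb. Its 24 DP peaks scored from 53.3 to 2849 with a median of 244, and 19 were above the median of the DP list. They covered 36774 bp, or 7.16% of the 514 kb window. Relative to the gene the layout was one-sided, with 14 peaks upstream and 0 beyond its 3′ end. The other 10 lay in introns, past the start site. The density was 7.00 peaks per 100 kb upstream and 8.78 in the gene body.

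All 5 Lef1 peaks that scored 1000 or more lay upstream, between 55.6 and 174 kb from the start site. No protein-coding gene is annotated in the 200 kb upstream of Lef1, and all 14 upstream peaks were intergenic. The highest score, 2849, was at 55.6 kb (chr3:130756773-130758711). The peak at 164 kb (chr3:130647740-130651339) scored 2792 and was 3600 bp wide. The peak at 174 kb (chr3:130638730-130640918) scored 2143. Between these far and near ends, peaks at 83.9 and 96.3 kb scored 1693 and 1146. The strong upstream peaks of Lef1 therefore spread over more than 100 kb of intergenic DNA.

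Of the other 9 upstream peaks, 3 lay beyond the strong peak at 174 kb and the rest lay between strong peaks. Peaks at 134 and 90.9 kb scored 782 and 779. A peak at 130 kb scored 544 and, at 3798 bp, was the widest of the locus. Below these the scores were 229 at 178 kb, 200 at 60.4 kb, 175 at 190 kb, 156 at 132 kb, 105 at 187 kb and 72.0 at 166 kb. No DP peak lay between the peak at 55.6 kb and the start of the gene, a gap of 54.7 kb.

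Within Lef1 the scores stayed lower. The strongest intronic peak, 7.61 kb past the start site (chr3:130820313-130821685), scored 518, and the one nearest the 3′ end, at 104 kb, scored 480. Peaks at 46.8 and 44.1 kb scored 425 and 258. The peak closest to the start site began 854 bp past it (chr3:130814243-130815746) and scored 147, and it covered the start of a shorter coding transcript at 130815715. The remaining 5 scored 202 at 97.9 kb, 142 at 31.0 kb, 73.3 at 49.9 kb, 70.5 at 66.1 kb and 53.3 at 49.0 kb. The most upstream Lef1 start site itself lay outside every peak.

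**Figure D2:**
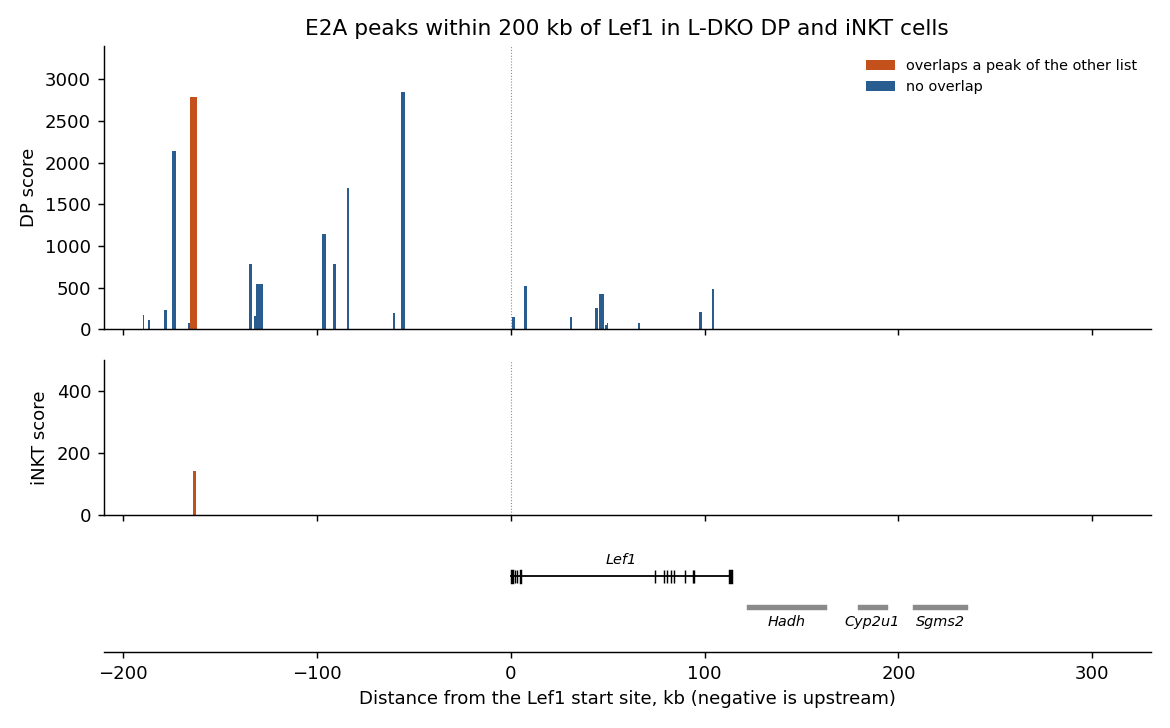
E2A peaks around Lef1 by distance from its start site in kb, with score on the vertical axis for DP cells (top) and iNKT cells (middle), bar width as peak width, and genes below. The bars at 55.6, 164 and 174 kb upstream reach 2849, 2792 and 2143, no bar inside the gene exceeds 518, and the single iNKT bar of 144 stands under the DP bar at 164 kb.

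The edges of both windows were checked, since the 200 kb limit is a choice. Upstream of Lef1 the last member is the peak at 190 kb with a score of 175, and the next DP peak out, at 205 kb (chr3:130607311-130608706), scored 2221 and is nearest to Rpl34, a ribosomal protein gene. A stretch of 1428 kb with no DP peak began at the last intronic peak of Lef1 and ran past its 3′ end. It held 50100 unknown bases and 6 protein-coding start sites, including those of Hadh and of Dkk2, a secreted Wnt inhibitor. Of the 17512 gaps between neighbouring DP peaks, 375 were longer (2.14%), and the median gap was 19.2 kb. Upstream of Tcf7 the peaks stopped at 52157603, and the next DP peak was 266 kb away, beyond the start site of Vdac1, with 8.87% of gaps longer. At the other edge of Tcf7 the peak at 208 kb scored 70.4, and the next one out, at 247 kb, scored 75.1. No iNKT peak lay in any of these gaps.

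Both loci were dense in DP peaks by the standard of the genome. Among 22350 protein-coding genes with the same window the median was 0.747 DP peaks per 100 kb, with quartiles of 0.111 and 1.93. Tcf7 had 5.80 per 100 kb, and 245 genes were denser (1.1%). Lef1 had 4.67 per 100 kb, and 709 genes (3.17%) were denser. With a 100 kb window Tcf7 had 9.96 per 100 kb with 0.166% of genes denser, and 4.84% were denser than Lef1. With peaks of score 100 or more, 1.4% were denser than Lef1. A DP peak within the window was itself common, at 75.2% of genes, and 20.4% had one in the gene body. By peaks in the gene body, 68 genes (0.304%) had more than the 10 of Lef1 and 216 (0.966%) had more than the 6 of Tcf7. Windows of neighbouring genes share peaks, and long genes have more room for them.

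**Figure D3:**
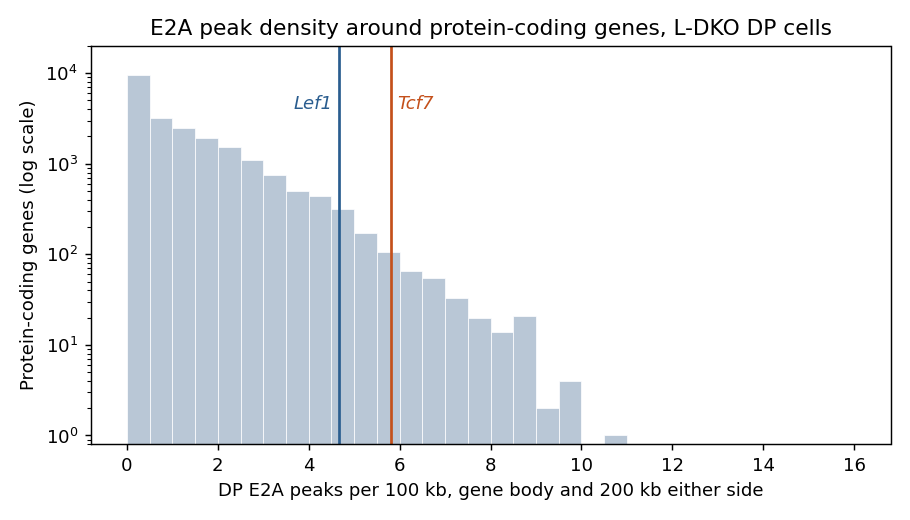
Number of protein-coding genes (vertical axis, log scale) by DP E2A peaks per 100 kb of gene body and 200 kb on either side (horizontal axis). Vertical lines mark Lef1 at 4.67 and Tcf7 at 5.80, both above the 95th percentile of 4.15.

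How closely the peaks were packed depended on the distance at which they were joined. When DP peaks were joined across gaps of up to 2.5 times 5 kb, the genome gave 10231 groups, of which 6718 (65.7%) were single peaks. One group at Tcf7 held 19 peaks over 94.7 kb (chr11:52062927-52157603), from 33.2 kb past the start site to 58.4 kb upstream, so it took in the whole gene. Only 3 groups held more peaks, and the largest held 24. The other 6 Tcf7 peaks formed groups of 3, 2 and 1. The Lef1 peaks formed 8 groups of 1 to 6 peaks, the largest of them, with 6, at the far end of the upstream arm (chr3:130623401-130651339, 27.9 kb), and 178 groups in the genome held more peaks than that one. Another, of 5 peaks over 19.7 kb, lay in an intron (chr3:130843957-130863637). With a 5 kb limit the largest group held 6 peaks at Tcf7 and 4 at Lef1, so the contrast between the loci rests on the wider limit.

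Each locus held 1 iNKT peak, and both lay upstream. The Tcf7 iNKT peak (chr11:52127025-52128595) was 31.1 kb upstream, scored 432 and ranked 65 of 1516, with 4.22% of iNKT peaks scoring higher. It lay wholly inside the DP peak at 30.8 kb, with midpoints 366 bp apart. The Lef1 iNKT peak (chr3:130649572-130650930) was 163 kb upstream, scored 144 and ranked 337, with 22.2% scoring higher. It lay wholly inside the DP peak at 164 kb, with midpoints 712 bp apart. A single iNKT peak in the window is not unusual, since 27.8% of protein-coding genes had at least 1, while 3.00% had one in the gene body and neither Tcf7 nor Lef1 did. Outside the windows the nearest iNKT peak was 328 kb upstream of Tcf7 (chr11:52424265-52424751), with a score of 56.1, and the next on the other side was 789 kb away. At Lef1 the nearest was 1180 kb upstream.

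From the DP side, 2 of the 49 peaks overlapped an iNKT peak by at least 1 bp, against 5.99% of all DP peaks. From the iNKT side both of the 2 overlapped a DP peak, against 69.3% of all iNKT peaks. When 50% of each peak had to overlap, the Lef1 pair was no longer counted as shared. Among the DP peaks with scores of 1000 or more there were 10 at these loci, or 20.4% of the 49 against 9.51% of the list. Of those 10, 2 overlapped an iNKT peak, where 31.9% of such DP peaks did across the genome. At scores of 2000 or more 2 of 6 overlapped, against 49.8% in the genome (Wilson 95% interval 46.0 to 53.7). The shared peaks were thus among the strongest of the DP list, and the other 4 of that strength, at 58.4 kb upstream and 7.97 kb inside Tcf7 and at 55.6 and 174 kb upstream of Lef1, had no iNKT peak called. With counts this small the overlap at these loci cannot be told from that of DP peaks of like score.

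**Figure D4:**
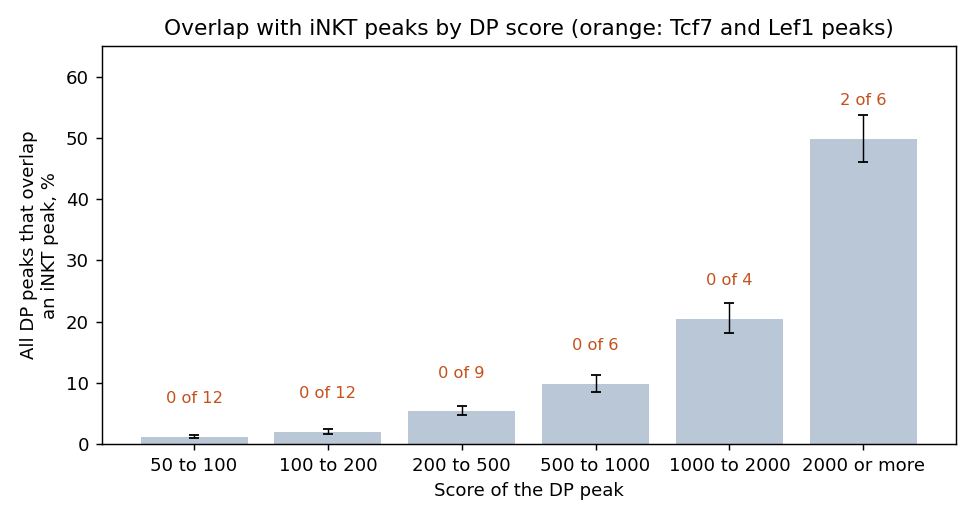
Percentage of all DP peaks that overlap an iNKT peak (vertical axis) by DP score class (horizontal axis), with 95% Wilson intervals as error bars and the counts for Tcf7 and Lef1 peaks printed above each bar. The genome-wide share rises from 1.22% to 49.8%, and the only overlaps at these loci, 2 of 6, are in the highest class.

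The shared Tcf7 peak was rich in the core that TCF-1 itself binds. Its 1571 bp held 5 copies of TCAAAG, spread over 852 bp, with 3 copies of CAGGTG among and beside them. Only 7 of the 1516 iNKT peaks (0.462%) held 5 or more copies, and among the 155 iNKT peaks within 10% of its width 3 did (1.94%). These counts were taken after the sites in the peak had been seen. The shared Lef1 peak held 2 copies of TCAAAG and 2 of CAGGTG in 1359 bp. Neither iNKT peak had a CAGGTG within 100 bp of its midpoint, the nearest being 131 bp away at Tcf7 and 198 bp at Lef1. A match to letters is a description of the reference and no evidence that a factor was bound there.

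Across the DP peaks the E-box CAGGTG was counted less often at Lef1 than at Tcf7, a comparison of peaks of 1 library that was not tested. Within whole peaks, 23 of 25 Tcf7 peaks (92.0%) held CAGGTG on either strand against 16 of 24 Lef1 peaks (66.7%), and all DP peaks stood at 79.0%. Per length this was 1.56 copies per kb at Tcf7, 0.870 at Lef1 and 1.62 over all DP peaks. For CAGCTG the values were 0.874, 1.20 and 1.05 per kb. Lef1 peaks were thus below the list in copies of CAGGTG per kb and slightly above it in CAGCTG.

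The strongest peaks did not divide by locus in this way. The Tcf7 peak at 58.4 kb held 9 copies of CAGGTG, the nearest 26 bp from its midpoint, and the peaks at 30.8 kb and in the intron held 5 each, which is 1.77, 2.09 and 1.11 copies per kb. The Lef1 peak at 55.6 kb held 5, the nearest 10 bp from its midpoint, and the peak at 164 kb also held 5, which is 2.58 and 1.39 copies per kb. The Lef1 peak at 174 kb, with a score of 2143, held no CAGGTG in its whole length and 2 copies of CAGCTG. Of the 646 DP peaks that scored 2000 or more, 9 (1.39%) had no CAGGTG. The strongest intronic Lef1 peak, which scored 518, and the one by the start site, which scored 147, also had none, with 2 and 3 copies of CAGCTG. This peak at 174 kb was singled out after its sites had been seen.

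At peak midpoints the shares were lower and their intervals wide. Of the 49 windows of 200 bp at the midpoints, 14 held CAGGTG (28.6%, Wilson 95% interval 17.8 to 42.4), against 43.9% of all DP peaks (43.2 to 44.7). Windows 2 kb to either side held it in 15.3% of cases at these loci and in 15.5% over the list. The deposited peaks carry no summit, so a midpoint need not be the centre of binding. Median peak width was 1429 bp at Tcf7 and 1322 bp at Lef1, against 984 bp over the DP list. Whether width bears on these shares was not tested. The share was 36.0% at Tcf7 (20.2 to 55.5) and 20.8% at Lef1 (9.24 to 40.5), with overlapping intervals. CAGCTG was found in 22.4% of the 49 (13.0 to 35.9) against 29.0% of the list. The core TCAAAG was found in 18.4% (9.98 to 31.4) against 17.4%, so the peaks at these loci held the core of their own products about as often as any DP peak. The Runx core ACCACA stood at 28.6% against 23.8%, and the core TGGGAA of RBPJ, the DNA-binding partner of Notch, at 18.4% against 15.8%. The Gata3 core TTATCT was found in 1 window (2.04%, 0.361 to 10.7) against 8.87%, with 11.2% in the windows to either side. Over whole peaks the same core stood at 0.455 copies per kb at these loci against 0.506 in the list. Each core was searched on both strands as spelled here. Neighbouring sites can share bases, as ACCACA and CAGGTG do at the second Tcf7 site printed above. These intervals cover counting error only, and peaks of 1 locus are not independent.

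**Figure D5:**
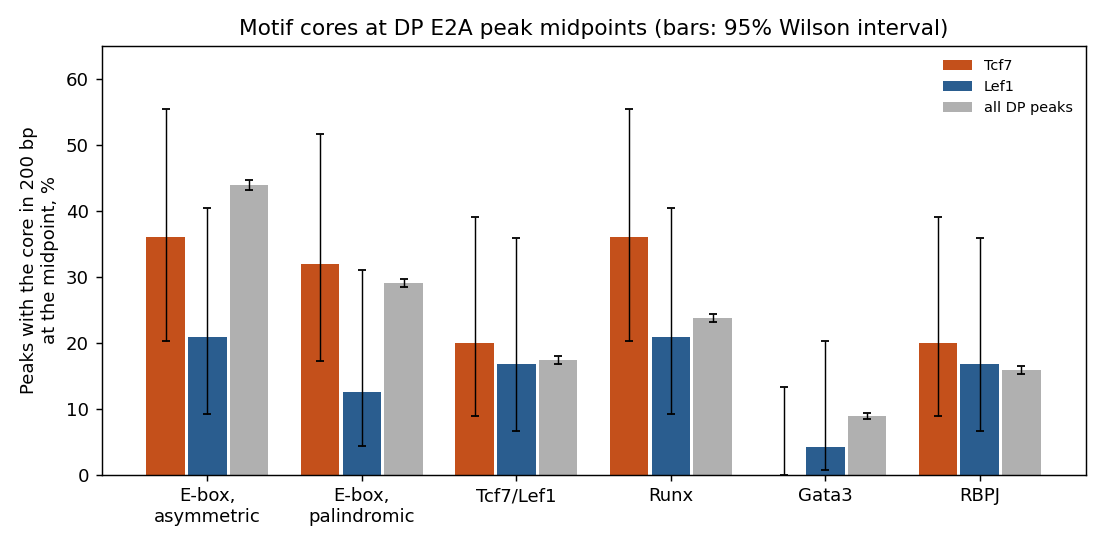
Percentage of DP peaks with each core in 200 bp at the midpoint (vertical axis) for Tcf7, Lef1 and all DP peaks, where the asymmetric E-box is CAGGTG and the palindromic one CAGCTG, with 95% Wilson intervals as error bars. The asymmetric E-box stands at 36.0%, 20.8% and 43.9%, and no Tcf7 midpoint window held the Gata3 core.

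Within the 49 peaks a higher score went with a wider peak and not with more copies of CAGGTG per length. The rank correlation of score with width was 0.73 over the 49 peaks and 0.73 over the whole DP list. That of score with copies of CAGGTG per kb was 0.02 over the 49 and 0.05 over the list. The points share 1 library, and the caller sets width and score from the same reads.

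Assignment of peaks to the pair of genes depends on what counts as a gene. By distance to protein-coding start sites, 14 of the 25 Tcf7 peaks were nearest to Tcf7 itself and the others to Vdac1 (4), Skp1a (3), Ppp2ca (2) and olfactory receptor genes. At Lef1, 22 of 24 were nearest to Lef1 and 2 to Hadh, a gene of fatty acid oxidation. When noncoding genes were included, 9 Tcf7 peaks and 8 Lef1 peaks were nearest to their own gene. The lists give position only and do not say which gene a peak acts on.

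Genes of the TCF/LEF and β-catenin pathway were read in the same way from a list of 24 that includes Tcf7 and Lef1. Of the 24, 22 had a DP peak within 200 kb and 12 had one in the gene body. Tcf7 and Lef1 count toward both numbers. Against the background of 75.2% and 20.4% given above, the list is small and several of its members are neighbours. In the TCF/LEF family all 4 genes had DP peaks in window and gene body. Tcf7l1 had 7 DP peaks with a highest score of 299. Tcf7l2 had 5, of which the highest, 3100, lay 197 kb from its start site, and 1 iNKT peak of 113. At 1.24 and 0.845 peaks per 100 kb both were far less dense than Tcf7 and Lef1.

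Among 6 coactivator genes all had DP peaks in the window, against 75.2% of protein-coding genes, and 1 had one in the gene body, against 20.4%. Ctnnb1, which encodes β-catenin, had 6, the strongest scoring 499.55 at 32.5 kb from its start site, and an iNKT peak of 128. Among the genes whose products join β-catenin to the transcription machinery, Bcl9l had 18 DP peaks and its relative Bcl9 had 2, with 4.17% and 61.6% of protein-coding genes denser. Pygo1 had 16 and Pygo2 had 9, with 6.57% and 20.2% denser. Of 8 corepressor and inhibitor genes 7 had DP peaks in the window, against 75.2% of protein-coding genes, and 6 in the gene body, against 20.4%. Some of the 8 are neighbours whose windows share peaks. Tle3, a Groucho corepressor, had 21 DP peaks, and its relative Tle4 had 3, with 2.99% and 56.8% of genes denser. Ctnnbip1, which blocks β-catenin binding to TCF factors, had 19, and Nlk, a kinase that acts on TCF factors, had 10, with 4.52% and 25.9% denser. Aes, Tle2 and Tle6 are neighbours on chromosome 10 and share the same 23 peaks, led by a score of 3225 at 1.36 kb from the Aes start site. Tle1 had no DP peak but 1 iNKT peak of 52.3 in its gene body. Of 6 genes of the β-catenin destruction complex and its feedback, 5 had DP peaks in the window and 1 in the gene body, close to those same shares of all genes, and their median density was 1.02 per 100 kb. Axin2, a feedback inhibitor induced by Wnt signals, was the exception and had 2 iNKT peaks, the higher scoring 113. Over the whole list 13 of 24 genes, Tcf7 and Lef1 among them, had an iNKT peak in the window. The share over all protein-coding genes was 27.8%. In the same list 6 of 24 genes had a DP peak reaching within 2 kb of the start site, including Tcf7 with 2 and Lef1 with 1. The share over all protein-coding genes was 15.0%.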

How the data were processed

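E2A ChIP-Seq was analysed in sorted L-DKO DP and iNKT cells, with 1 E2A and 1 input library each. According to the study's methods and the submitters' processing notes, the authors used Bowtie 1.1.2 on mm9, kept only reads whose best position was single, and then called peaks against input with MACS 1.4.2. The deposited files give each peak's start, end and score, 10 times the negative log10 of the MACS p-value. Read depth is unknown. All 19048 peaks lay inside the NCBIM37 assembly (mm9), whose GENCODE M1 genes were used. Python 3.11.15, numpy 2.4.6 and scipy 1.17.1 were used for overlaps (at least 1 bp), distances, peak groups (gaps up to 2.5 times 5 kb), 6-base cores and Wilson intervals, and 8 of 8 checks on simulated data were recovered. No test between cell types was made. Named genes were Tcf7, Lef1, their neighbours and the pathway list. The members, lists and cores were chosen with earlier results of these data known. Gap lengths, site counts in the strongest peaks and sites in the shared peaks were added after the values were seen. Windows, score minimum, overlap, group gap and gene class were varied.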

Additional observations from a re-analysis of the deposited data

How the results depend on the processing

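Of 52 alternative values for 20 results, 31 stayed and 21 moved, where counts, densities and percentages of genes stayed within 1.5 times the reported value and motif shares within its Wilson interval. A 100 kb window gave Tcf7 9.96 DP peaks per 100 kb with 0.166% of genes denser, and left Lef1 15 DP and 0 iNKT peaks with 4.84% of genes denser. A 50 kb window left Lef1 10 DP and 0 iNKT peaks. Scores of 200 or more kept 11 DP peaks at Tcf7, 14 at Lef1 and 0 iNKT peaks at Lef1. Scores of 100 or more put 1.4% of genes above Lef1. A 100 bp midpoint window gave a CAGGTG share of 16.0% at Tcf7, and whole peaks gave 92.0% and 66.7%. A 5 kb gap gave a largest Tcf7 group of 6 peaks and 24 groups at both loci in place of 12. With all gene types 9 Tcf7 and 8 Lef1 peaks were nearest to their own gene. An overlap of 50% of both peaks left 0 shared DP and 0 shared iNKT peaks at Lef1, since the DP peak is 3600 bp and the iNKT peak 1359 bp. The gene body alone left 12 pathway genes with a DP peak. Where no construction of the setting shows it, the cause was not tested. No paired analysis was possible because each cell type has 1 E2A library, and replicate error is therefore unknown.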
